A study of Mus musculus with 17 samples.

Results

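The lactation genes considered here are 10 genes whose products make up milk or its secretion: the casein genes Csn1s1, Csn1s2a, Csn2 and Csn3, the whey protein genes Wap, Lalba, Glycam1 and Ltf, and Xdh and Btn1a1, which act in milk fat secretion. They were chosen by their role in milk, with earlier results of these data known, and all 10 of the 28786 genes on the array could be found, on 14 of its 41174 probes. RNA from epithelial cells cut by laser from 17 mammary tumors of FVB transgenic mice was amplified in 2 rounds and compared on 2-color arrays with an amplified universal mouse reference RNA. Of these tumors, 9 came from mice carrying p75 CUX1 and 8 from mice carrying p110 CUX1, both shortened forms of the CUX1 transcription factor placed under mouse mammary tumor virus (MMTV) regulatory sequences, which are active mainly in mammary epithelium. The labels give 4 adenosquamous carcinomas, all of them p75 tumors, 9 solid carcinomas (3 p75 and 6 p110), 2 adenomyoepitheliomas, 1 adenoma and 1 adenocarcinoma. The study also sorted the tumors by Wnt gene expression into a high-Wnt cluster of 5, a medium-Wnt cluster of 5 and a low-Wnt cluster of 7. That sorting used Wnt genes on the same arrays, and none of the 10 lactation genes is among them. There was no normal mammary gland on these arrays, and the age of the mice and whether they had been pregnant or lactating are not given in the sources used here. Values are log2 ratios of tumor over reference (written "log2 ratio" below), 1 per tumor, averaged over 2 arrays with swapped dyes, or over 4 for p110-143 and p110-360. A gene was called measured in a tumor when, on each of its arrays, the tumor color was well above background.

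Milk proteins are made by the secretory, or alveolar, luminal cells of the mammary gland. In pregnancy prolactin binds its receptor, which acts through the kinase JAK2 and the transcription factor STAT5, and STAT5 together with ELF5 and the glucocorticoid receptor switches on the casein and whey genes. Most milk protein mRNA disappears when the gland involutes, so what remains of it in a tumor can be read as secretory differentiation. In RNA from many cells, however, fewer secretory cells and less RNA per cell cannot be told apart. Pregnancy or lactation of the mice, which is not given, cannot be told apart from differentiation of the tumor either.

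The tumors differed in signal strength and 1 of them had low levels of luminal markers. In the tumor color the share of probes that were well above background ran from 20.9% in p110-374 to 65% in p75-129, and precision is limited by how many arrays each tumor had. In p110-121, labeled a solid carcinoma of epithelial cells, 4 of 9 luminal markers were measured, and the summed signal of the 9 was 6886 intensity units, against 139100 to 685700 in the other 16 tumors. Of the 7 basal and myoepithelial markers 3 were measured there, and their summed signal of 84850 was within the range of the other tumors. The log2 ratio of Elf5 was 0.07 in p110-121 and 5.74 to 9.45 elsewhere, and that of Krt18 was -4.82 there and -0.04 to 3.20 elsewhere. Markers of other immune cells had their highest summed signal, 18110, in the same tumor, with a range of 1063 to 4875 in the others. It is in neither group of the comparison of high-Wnt with low-Wnt tumors, and the members' differences in the other comparisons and the tested correlations are given with and without it. Each scan year held tumors of 1 transgene, so that scan year and transgene cannot be told apart. Each tumor came from a mouse of its own, and p-values measure the spread between these mice.

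The members lie in the casein cluster of chromosome 5, where the order in RefSeq is Csn1s1, Csn2, Csn1s2a, Csn1s2b, Prr27, Odam, BC037156 and Csn3, and on chromosomes 9 (Ltf), 11 (Wap), 13 (Btn1a1), 15 (Lalba and Glycam1) and 17 (Xdh). The files name the 4 casein genes by the older symbols Csna (Csn1s1), Csng (Csn1s2a), Csnb (Csn2) and Csnk (Csn3). The 250 bases before the start site are shown for the 5 genes with the most similar on and off pattern in the tumors. The sequences are from RefSeq, build GRCm38.p6, and are written 5′ to 3′ on the strand of the gene, with matches to TTCNNNGAA, the core letters of a STAT5 site, in capitals.
Csn1s1 (chr5:87665958-87666207, plus strand): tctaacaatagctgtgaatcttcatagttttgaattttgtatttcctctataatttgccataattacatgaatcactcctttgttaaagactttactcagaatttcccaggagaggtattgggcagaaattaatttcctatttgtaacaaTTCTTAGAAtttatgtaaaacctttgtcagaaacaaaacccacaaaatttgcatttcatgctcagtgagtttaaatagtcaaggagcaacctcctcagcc
Csn2 (chr5:87699426-87699675, minus strand): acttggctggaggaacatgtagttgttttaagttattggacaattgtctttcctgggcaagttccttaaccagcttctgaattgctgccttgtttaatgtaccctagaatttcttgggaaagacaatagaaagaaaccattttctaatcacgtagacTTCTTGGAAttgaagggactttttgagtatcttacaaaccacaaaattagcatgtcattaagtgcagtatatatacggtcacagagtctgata
Csn1s2a (chr5:87774200-87774449, plus strand): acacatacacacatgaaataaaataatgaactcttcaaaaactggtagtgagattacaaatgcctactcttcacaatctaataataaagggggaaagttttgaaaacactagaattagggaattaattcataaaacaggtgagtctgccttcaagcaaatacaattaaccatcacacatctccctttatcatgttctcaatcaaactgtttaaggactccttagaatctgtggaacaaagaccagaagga
Glycam1 (chr15:103565082-103565331, minus strand): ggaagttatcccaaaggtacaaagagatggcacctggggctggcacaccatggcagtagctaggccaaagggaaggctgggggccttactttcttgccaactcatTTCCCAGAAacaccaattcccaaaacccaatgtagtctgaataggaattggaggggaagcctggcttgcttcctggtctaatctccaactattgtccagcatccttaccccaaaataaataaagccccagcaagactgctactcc
Wap (chr11:6638650-6638899, minus strand): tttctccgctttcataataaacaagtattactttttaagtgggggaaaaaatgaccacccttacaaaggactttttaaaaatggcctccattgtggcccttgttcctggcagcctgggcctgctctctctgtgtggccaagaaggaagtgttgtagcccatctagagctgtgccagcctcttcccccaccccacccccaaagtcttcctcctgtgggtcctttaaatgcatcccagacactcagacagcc
The motif reads the same on both strands, so that 1 search covers them. It was found in 3 of the 7 members with a promoter in the RefSeq table: Csn1s1, where it ends 91 bases before the start site, Csn2 (84 bases) and Glycam1 (136 bases). Of all 32851 promoters searched over the same 250 bases, 2306 (7.02%) held it. The windows of Csn1s2a, Wap, Lalba and Ltf held no match, which says only that these letters are not in these 250 bases.

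The mRNAs of Csn2 and Csn1s2a were each either far above the reference or much nearer to it, with a gap between these tumors. Csn2 encodes β-casein, a major protein of mouse milk. Its log2 ratio was between 7.76 and 10.74 in 11 tumors and between -0.10 and 3.78 in the other 6, with no tumor in the gap of 3.98 between them. Among p75 tumors it was 7.76 in p75-47, 8.98 in p75-80, 10.40 in p75-101, 9.94 in p75-129, 10.64 in p75-150 and 9.26 in p75-534. It was 3.78 in p75-216, 0.21 in p75-94 and -0.10 in p75-90. Among p110 tumors it was 9.94 in p110-143, 10.74 in p110-225, 8.98 in p110-314, 10.60 in p110-360 and 10.49 in p110-416. It was 1.72 in p110-374, 0.10 in p110-98 and 0.03 in p110-121. Both transgenes thus had tumors on either side of the gap, and Csn2 was measured in 13 tumors, and in the other 4 no array had it well above background.

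Csn1s1 and Csn1s2a encode α-caseins, which form the casein micelle together with β-casein. The log2 ratio of Csn1s1 ran from 0.00 in p110-121 to 11.59 in p110-225, with a median of 10.43, and it was measured in 16 tumors. Because the lowest value comes from a tumor where Csn1s1 was not measured, its range of 11.59 has no exact size. In 3 of the 6 tumors below the gap of Csn2, Csn1s1 was at 5.44 or higher. In the adenoma p110-98 its log2 ratio was 9.28, while Csn2 was 0.10 and Csn1s2a 1.0. In p110-374 it was 7.55 beside 1.72 for Csn2 and 2.85 for Csn1s2a, and in p75-94 it was 5.44 beside 0.21 and 3.34. In the remaining 3 it was 3.85 in p75-216, 1.81 in p75-90 and 0.00 in p110-121. These ratios are each relative to the gene's own reference signal, so that they rank tumors and not genes. Csn1s2a ran from -0.06 in p75-90 to 11.24 in p75-80 with a median of 9.41, was measured in 14 tumors and had 11 tumors above a gap of 4.62 and 6 below it. The 11 tumors with Csn2 above its gap are the 11 with Csn1s2a above its own.

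**Figure D1:**
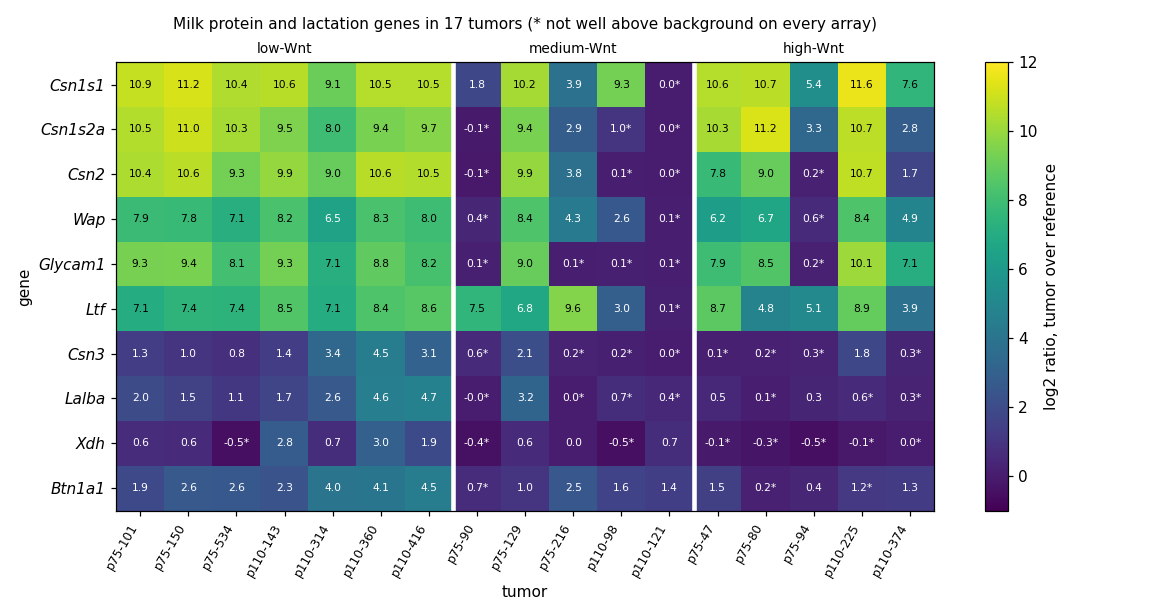
Log2 ratio of tumor over reference, by color and printed value, of each lactation gene (y axis) in the 17 tumors (x axis), ordered by Wnt cluster; an asterisk marks a gene not measured in that tumor. All low-Wnt tumors are high for Csn1s1, Csn1s2a, Csn2, Wap and Glycam1, and p110-121 has 2 of the 10 genes without an asterisk.

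Csn3 and Lalba were measured in fewer tumors than the other caseins and Wap. Csn3 encodes κ-casein, which coats the casein micelle, and Lalba encodes α-lactalbumin, the subunit that turns a galactosyltransferase into lactose synthase. Csn3 was measured in 9 tumors and ran from 0.01 in p110-121 to 4.50 in p110-360, with a median of 0.77. The next tumors were p110-314 at 3.40 and p110-416 at 3.11, and the highest p75 tumor was p75-129 at 2.14. Lalba was measured in 10 tumors and ran from -0.02 in p75-90 to 4.73 in p110-416, with a median of 0.68. After p110-416 came p110-360 at 4.57, p75-129 at 3.17 and p110-314 at 2.63. In p75-47 and p75-80, where Csn2 was 7.76 and 8.98, Csn3 was 0.14 and 0.20 and Lalba 0.50 and 0.11. High β-casein was thus found both in tumors where Csn3 was measured and in tumors where it was not.

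The whey protein genes Wap and Glycam1 were high and low in nearly the same tumors as Csn2 and Csn1s2a, and Ltf was so among p110 tumors but not among p75 tumors. Wap encodes whey acidic protein, the major whey protein of rodents, and Glycam1 a mucin-like protein of the milk serum. Wap ran from 0.11 in p110-121 to 8.42 in p75-129, with a median of 6.71, and was measured in 14 tumors. Glycam1 ran from 0.07 in p110-121 to 10.12 in p110-225, with a median of 8.09. Its gap of 6.93 was the largest found for a member, with 12 tumors at or above 7.10 and 5 at or below 0.17. Glycam1 was not measured in these 5, so that the size of the gap is not exact. The tumor on the high side for Glycam1 and not for Csn2 was p110-374, with 7.10 against 1.72. In p75-216 Csn2 and Csn1s1 were intermediate, at 3.78 and 3.85, while Glycam1 was at 0.08, and Wap was at 4.29 in that tumor. Csn3 was at 0.24 and not measured there. A second Wap probe gave -0.04 to 9.36 and was measured in 15 tumors.

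Ltf encodes lactoferrin, an iron-binding protein of milk, of other secretions and of neutrophil granules. Its log2 ratio ran from 0.15 in p110-121 to 9.58 in p75-216, with a median of 7.39, and it was measured in 16 tumors. The gap below the other 16 tumors was 2.81, from p110-121 to p110-98 at 2.96, and has no exact size because Ltf was not measured in p110-121. Among p110 tumors Ltf was 7.07 to 8.91 in the 5 with Csn2 above its gap and 0.15 to 3.92 in the 3 below it. Among p75 tumors it was 4.79 to 8.71 in the 6 above the gap of Csn2, and in the 3 below it Ltf was 9.58 in p75-216, 7.53 in p75-90 and 5.13 in p75-94. The difference between the transgenes in this was not tested. The second Ltf probe was also highest in p75-216, at 7.88, and was 4.20 in p75-90. Of the 7 neutrophil granule markers, 3 were measured in p75-216 and 3 in p75-90, and their summed signal there was 4714 and 2127, within the range of 957.5 to 90480 over all tumors. Lcn2, a marker also made by epithelium, was measured in both (4.57 in p75-216 and 2.99 in p75-90), as was Camp (3.19, its highest value in any tumor, and 0.80). The other measured ones were Mpo in p75-216 (-0.77) and S100a9 in p75-90 (1.03), and Ngp, Elane and S100a8 were measured in neither. The highest neutrophil sums, 90480 in p75-94 and 78180 in p75-80, came with Ltf at 5.13 and 4.79.

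Xdh and Btn1a1, which act together at the surface of the milk fat globule, varied less. Xdh encodes xanthine oxidoreductase and Btn1a1 butyrophilin, which bind each other when the lipid droplet is released. Xdh was measured in 9 tumors and ran from -0.49 in p110-98 to 2.99 in p110-360, with p110-143 at 2.77 and p110-416 at 1.93 next. The other 14 tumors were at or below 0.71. A second Xdh probe, in another stretch of the gene, lay between -0.08 and 0.51 in all tumors and was measured in 2. Btn1a1 was measured in 14 tumors and ran from 0.21 in p75-80 to 4.49 in p110-416. The tumors above its gap of 1.36 were p110-416, p110-360 (4.06) and p110-314 (4.00). The second Btn1a1 probe was also highest in these 3, with 2.13, 1.89 and 1.86, and was at or below 1.07 in the other 14. In p75-94 and p75-129 the brightest Btn1a1 probe was bright in both colors, with log2 tumor signals of 12.06 and 12.46 and reference signals of 11.67 and 11.46, while the reference signal lay between 6.47 and 7.63 in the other 15 tumors. The second probe did not have this in p75-94, where its log2 tumor signal was 6.57.

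The number of members measured in a tumor ran from 2 to 10. All 10 members were measured in 7 tumors: the low-Wnt tumors p110-143, p110-314, p110-360, p110-416, p75-101 and p75-150, and the medium-Wnt p75-129. The remaining low-Wnt tumor, p75-534, had 9. The number was 8 in p75-47, 7 in p110-225, p75-216 and p110-374, 6 in p75-80, 5 in p75-94 and 4 in p110-98. It was 2 in p75-90, namely Csn1s1 and Ltf, and 2 in p110-121, namely Xdh and Btn1a1. The share of probes above background did not run in the same order: it was 54.4% in p75-94 with 5 members and 24.7% in p110-225 with 7. However, the highest shares, 65% in p75-129 and 54.6% in p110-314, came with 10 members. The lowest, 20.9% in p110-374 and 23% in p110-98, came with 7 and 4. The part of this share in these counts was not tested.

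The reference color of Csn1s1, Csn1s2a, Csn2 and Glycam1, and with it their ratio, differed between the 2 dye orientations. When the tumor was labeled with Cy5 and the reference with Cy3, the reference color of Csn1s1 was well above background on 1 of 19 arrays, and with the dyes swapped on 13 of 19. For Csn1s2a the counts were 0 and 13, for Csn2 0 and 10, for Wap 2 and 11, and for Glycam1 5 and 13. The log2 signal of the tumor color differed between the orientations by a median over tumors of 0.34 for Csn1s1, 0.19 for Csn1s2a, 0.17 for Csn2 and 0.28 for Glycam1, but by 1.10 for Wap and 0.74 for Ltf, and in single tumors by up to 1.87 for Csn1s1, 1.92 for Csn1s2a and 2.78 for Wap. The ratio was higher with the tumor in Cy5 by a median of 3.1 for Csn1s2a, 1.61 for Csn1s1, 1.43 for Glycam1 and 0.91 for Csn2, and by up to 6.14 for Csn1s2a and 4.36 for Csn2. For Wap and Ltf the medians were 0.22 and 0.20, with a range over tumors of -2.83 to 5.71 for Wap and -2.20 to 3.67 for Ltf. The spread of Csn1s2a among its 11 high tumors, from 7.96 to 11.24, is about as wide as this median disagreement of the dyes. For Csn2 the 11 high and 6 low tumors stayed apart in both orientations. In Cy5 Csn2 was at least 8.39 in each of the 11 high tumors and at most 4.12 in the 6 low ones, and in Cy3 the limits were 7.13 and 3.45. Csn1s2a was saturated in the tumor color on 2 arrays and Csn1s1 on 1, which is 1 of the 2 arrays of p110-314.

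**Figure D2:**
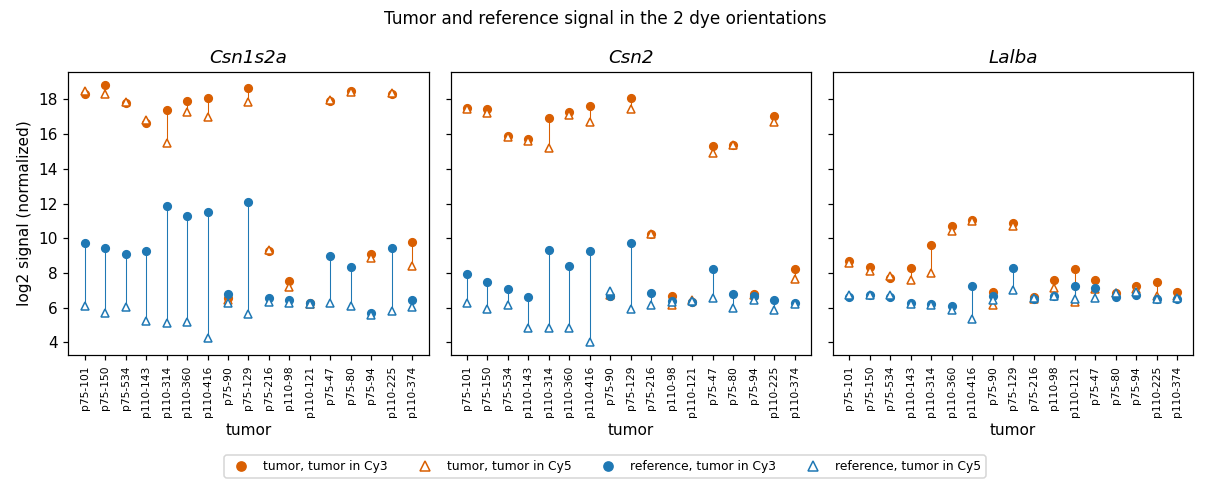
Normalized log2 signal (y axis) of the tumor color (orange) and the reference color (blue) for Csn1s2a, Csn2 and Lalba in each tumor (x axis), with the tumor in Cy3 (circles) or in Cy5 (triangles). The tumor signal of Csn1s2a differed by a median of 0.19 between the orientations and its reference signal by 3.02.

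Csn3 and Lalba varied together over the 17 tumors, of which 8 had both measured. Pearson's r between their log2 ratios was 0.898 (permutation p = 2e-05, adjusted over 45 pairs of members 0.000129) with a rho by Spearman of 0.76 (permutation p = 0.00059, adjusted 0.00295). Without the 2 tumors farthest from the median of Csn3, r was 0.889, and it was 0.952 within the 9 p75 tumors, 0.884 within the 8 p110 tumors and 0.896 without p110-121. Lalba and Xdh had r = 0.76 (permutation p = 0.002, adjusted 0.00514; rho = 0.63, permutation p = 0.00807, adjusted 0.0214), with 0.765 within p75, 0.737 within p110 tumors and 0.779 without p110-121, and 0.52 without the 2 farthest tumors. Lalba and Btn1a1 had r = 0.753 over all tumors (permutation p = 7e-04, adjusted 0.00262; rho = 0.654, permutation p = 0.00546, adjusted 0.0163), but 0.481 without the 2 farthest tumors, 0.205 within p75 tumors, 0.955 within p110 tumors and 0.749 without p110-121. Csn3 and Btn1a1 had r = 0.738 (permutation p = 0.001, adjusted 0.00353; rho = 0.495, permutation p = 0.0452, adjusted 0.0925), 0.55 without the 2 farthest tumors, 0.139 within p75, 0.872 within p110 tumors and 0.737 without p110-121. The p75 values of the relations with Btn1a1 include p75-94 and p75-129, where its probe was bright in both colors. The difference of the correlations between transgenes was not tested. Of the 17 tumors, 9 had Csn3 measured, 9 had Xdh, 10 had Lalba and 14 had Btn1a1. The correlations of these genes thus rest in part on values not above background. Csn3 and Xdh had r = 0.709 (permutation p = 0.003, adjusted 0.00894; rho = 0.578, permutation p = 0.0167, adjusted 0.0395), 0.594 without the 2 farthest tumors, 0.717 within p75, 0.623 within p110 tumors and 0.743 without p110-121. Xdh and Btn1a1 had r = 0.655 (permutation p = 0.005, adjusted 0.0127; rho = 0.566, permutation p = 0.0199, adjusted 0.0436), 0.685 without the 2 farthest tumors, 0.369 within p75, 0.643 within p110 tumors and 0.666 without p110-121. None of the 4 pairs of Ltf with Csn3, Lalba, Xdh and Btn1a1 passed the adjusted threshold by r or rho (r of 0.295 to 0.443, adjusted permutation p of 0.0913 or more, and r of 0.307 to 0.45 without p110-121). For Csn1s2a, Csn2 and Glycam1 the tumors form 2 groups with a gap of 3.98 or more. For Csn1s1 and Wap the largest gap was smaller, at 2.12 and 2.02, with 13 and 14 tumors above it. The pairs with any of these genes, which are among the 45 of the adjustment, are not given.

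**Figure D3:**
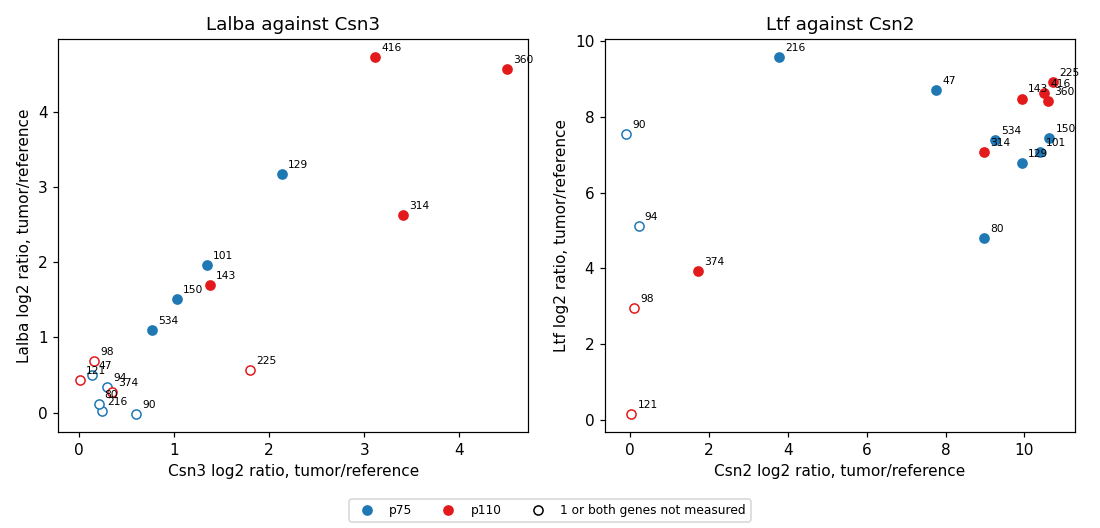
Log2 ratio of Lalba against Csn3 and of Ltf against Csn2, 1 point per tumor with its mouse number, p75 in blue and p110 in red, and open where 1 or both genes were not measured. Lalba was higher where Csn3 was higher (r = 0.898), and p75-216 and p75-90 had high Ltf with lower Csn2.

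Between high-Wnt and low-Wnt tumors all 10 lactation genes had a lower mean in high-Wnt tumors, and none passed the test across all genes. The high-Wnt group holds 3 adenosquamous carcinomas, 1 adenomyoepithelioma and 1 solid carcinoma, and the low-Wnt group 6 solid carcinomas and 1 adenosquamous carcinoma, so that cluster and histology overlap. Among solid carcinomas, with p110-225 the only high-Wnt one, the difference was above 0 for Csn1s1, Csn1s2a, Csn2, Wap, Glycam1 and Ltf (0.75 to 1.63) and below 0 for Csn3, Lalba, Xdh and Btn1a1 (-0.56 to -2.18). The 7 low-Wnt tumors all had Csn1s1, Csn1s2a, Csn2, Csn3, Wap, Lalba, Glycam1, Btn1a1 and Ltf measured, and Xdh in 6 of 7. In limma with Benjamini-Hochberg adjustment at 0.05, 0 of the 10 members were called, beside 67 of 28786 genes (0.233%), 47 higher and 20 lower in high-Wnt tumors. At an unadjusted p under 0.05 the counts were 5 of 10 members and 12% of all genes. The median difference was -1.95 over the members and 0.02 over all genes on the log2 scale. These medians are not alike, because the members range more widely over the tumors than most genes. The share of genes with a wider range was 0.0035% for Csn1s1 and at most 10.4%, for Xdh. Several members also vary together, so that their differences are not separate observations.

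Btn1a1 was nearest to the threshold. Of the high-Wnt tumors, p75-47 had a log2 ratio of 1.45, p75-80 of 0.21, p75-94 of 0.40, p110-225 of 1.17 and p110-374 of 1.33, and in low-Wnt tumors it ran from 1.85 to 4.49 with a median of 2.64. All high-Wnt tumors thus lay below all low-Wnt tumors. The means of 0.91 ± 0.57 (SD, n = 5) and 3.13 ± 1.02 (SD, n = 7) were -2.22 apart, with a standard error of 0.46 and an adjusted p of 0.06 in limma. Btn1a1 was measured in 3 of the 5 high-Wnt tumors, not in p75-80 and p110-225, so that this size is not exact, and 1 of the 3 is p75-94, where the probe was about as bright in the reference. The second Btn1a1 probe was measured in none of the high-Wnt tumors, and its ratios overlapped, with -0.03 to 0.39 in high-Wnt and 0.20 to 2.13 in low-Wnt tumors. The exact two-sided permutation test gave p = 0.00253, where 0.00126 is the smallest it can give. Within p75 tumors the difference was -1.67 (limma adjusted p = 0.506) and within p110 tumors -2.47 (limma adjusted p = 0.0935). It passed the threshold with scan year as a block (-2.09, limma adjusted p = 0.0479) and with a filter on dim probes (adjusted p = 0.0445). In the tumor color without the reference it was -0.31 (limma adjusted p = 0.879), with p75-94 bright in both colors for this probe.

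Lalba also had no overlap between these groups, and the share of all genes without overlap is not given here. Of the high-Wnt tumors, p75-47 had 0.50, p75-80 had 0.11, p75-94 had 0.34, p110-225 had 0.56 and p110-374 had 0.27, and low-Wnt tumors had 1.10 to 4.73 with a median of 1.96. The means were 0.36 ± 0.18 (SD, n = 5) and 2.60 ± 1.48 (SD, n = 7), and the difference of -2.24 (SE 0.68) had an adjusted p of 0.177 in limma. Lalba was measured in 2 of the 5 high-Wnt tumors, p75-47 and p75-94, so that the lower mean and its SD rest in part on values not above background and the difference has no exact size. By the exact two-sided permutation test p was 0.00631. It was -1.20 within p75 and -2.99 within p110 tumors (limma adjusted p = 0.82 and 0.157). The exact tests of the 10 members in each of the 3 comparisons make 30 tests, and their p-values are not adjusted for that number.

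For β-casein the high-Wnt tumors were split. Csn2 was 7.76 in p75-47, 8.98 in p75-80 and 10.74 in p110-225, but 0.21 in p75-94 and 1.72 in p110-374, whereas all low-Wnt tumors were between 8.98 and 10.64. The means of 5.88 ± 4.64 (SD, n = 5) and 10.04 ± 0.67 (SD, n = 7) differed by -4.16 (SE 1.92, limma adjusted p = 0.406, exact permutation p = 0.0215), which is less than the SD among high-Wnt tumors. Wap differed by -2.33 (limma adjusted p = 0.539), Csn3 by -1.66 (adjusted p = 0.289), Xdh by -1.48 (adjusted p = 0.233), and Csn1s1, Csn1s2a, Glycam1 and Ltf by -1.31 to -2.06 (adjusted p of 0.69 or more). Csn3 was measured in 1 and Xdh in 0 of the 5 high-Wnt tumors, so that the sizes of these differences are not exact either. With the tumor in Cy5 and in Cy3 the difference was -4.13 and -0.53 for Wap, -3.50 and -0.62 for Csn1s2a, -3.02 and -0.67 for Glycam1, -2.37 and -0.25 for Csn1s1, and -2.36 and -0.62 for Ltf, with no adjusted p under 0.40 in limma. Leaving out p75-94 moved the difference to -0.20 for Glycam1, -0.38 for Csn1s1, -1.13 for Wap and -2.74 for Csn2, and leaving out p110-374 moved that of Csn1s2a to -0.85. The highest Csn1s1, Csn2 and Glycam1 ratios of all 17 tumors were found in a high-Wnt tumor, p110-225, where the reference was well above background on 1 of 2 arrays. Its log2 tumor signal was not the highest for them: it was 16.88 for Csn2 against 17.77 in p75-129, 16.88 for Glycam1 against 17.97 in p75-129, and 18.22 for Csn1s1 against 18.26 in p75-150. High Wnt expression and high β-casein were therefore present in the same tumor in 3 of 5 cases.

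The medium-Wnt tumors had the lowest mean of the 3 clusters for Csn1s1, Csn1s2a and Csn2. For Csn2, p75-90 had -0.10, p75-216 had 3.78, p110-98 had 0.10, p110-121 had 0.03 and p75-129 had 9.94. Csn1s2a and Glycam1 had the same order of sides, with p75-129 at 9.40 and 8.98 and the other 4 tumors at or below 2.85 and 0.14. The medium-Wnt group holds the adenoma, the adenocarcinoma and an adenomyoepithelioma beside 2 solid carcinomas, so that cluster and histology cannot be told apart in it. It was not compared with the others by a test.

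The sums of basal and of squamous markers did not overlap between high-Wnt and low-Wnt tumors, and those of the other cell types did. The summed signal of 7 basal and myoepithelial markers was 258300 to 656500 in high-Wnt and 7513 to 140500 in low-Wnt tumors. That of 5 squamous markers was 1288 to 11250 and 767.8 to 1068. In p75-47 at 1288 and p75-101 at 1068, 2 of the 5 squamous markers were measured, and Ivl was measured in no tumor. The squamous sums thus rest in part on signals not above background. Luminal markers overlapped, with 165600 to 570100 and 139100 to 333900. Adipocyte markers overlapped too, with 2062 to 443800 and 3131 to 319700. Over genes, the mean was higher in high-Wnt tumors for 6 of 7 basal markers (median 1.96), 5 of 5 squamous (1.02), 4 of 5 fibroblast (1.24), 6 of 7 neutrophil (0.86), 5 of 6 other immune (0.06) and 4 of 7 endothelial markers (0.04), and lower for 5 of 5 adipocyte (-1.33), 6 of 9 luminal (-0.03) and 2 of 4 hormone-sensing markers (-0.01), with 0 calls by limma. Krt1 was measured in 2 high-Wnt tumors and in none of the low-Wnt tumors. Their part in the lower means of the lactation genes was not tested.

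**Figure D4:**
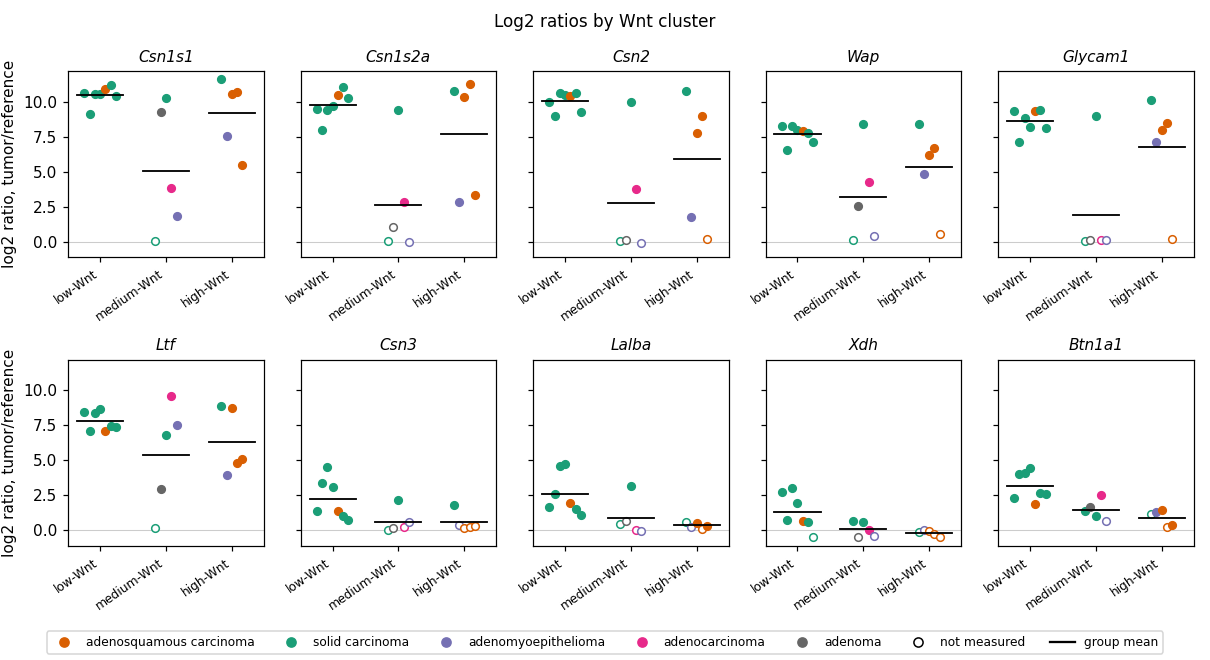
Log2 ratio of each member (y axis) in the 3 Wnt clusters (x axis), 1 point per tumor colored by histology and open where not measured, with the group mean as a line. Low-Wnt tumors lie close together and high for Csn1s1, Csn1s2a, Csn2, Wap and Glycam1, and the high-Wnt tumors lie below them for Btn1a1 and Lalba.

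Genes that act before and beside the milk proteins were taken from lists. Of 16 genes of prolactin and STAT5 signaling, 0 were called between high-Wnt and low-Wnt tumors, 10 had a lower mean in high-Wnt tumors, 7 had an unadjusted p under 0.05 (beside the 12% of all genes), and the median difference was -0.67. Prlr, the prolactin receptor, averaged 1.64 ± 1.26 (SD, n = 5) against 4.26 ± 0.71 (SD, n = 7) in the low-Wnt tumors (limma adjusted p = 0.297). Id2, an inhibitor of helix-loop-helix factors needed for alveolar development, differed by -1.82 (limma adjusted p = 0.235), and Elf5, the alveolar transcription factor, by -1.76 (adjusted p = 0.581). Prlr was highest in p110-98 and p75-90, at 7.27 and 6.75, where Csn2 was 0.10 and -0.10, and Elf5 was 8.32 and 7.43 in them. Prlr was lowest, and not measured, in p75-94 and p110-121, at -0.18 and 0.03, where Csn2 was 0.21 and 0.03. Low β-casein mRNA was thus found with both the highest and the lowest receptor mRNA.

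Of 13 other milk protein genes, 0 were called, 11 had a lower mean in high-Wnt tumors and 4 an unadjusted p under 0.05, with a median difference of -1.23. Muc15, a mucin of the milk fat globule membrane, averaged 3.68 ± 2.16 (SD, n = 5) and 8.01 ± 1.35 (SD, n = 7), which is -4.33 apart (limma adjusted p = 0.161). Spp1, which encodes osteopontin, differed by -2.35 (limma adjusted p = 0.389), and Lao1, an L-amino acid oxidase of mouse milk, by -2.30 (adjusted p = 0.559). Of 16 milk fat genes, 0 were called, 14 had a lower mean in high-Wnt tumors, 9 had an unadjusted p under 0.05, and the median difference was -1.46. Fabp3, a fatty acid binding protein, differed by -3.75 (limma adjusted p = 0.347) and Cd36, a fatty acid transporter, by -3.69 (adjusted p = 0.235). Olah, the thioesterase that ends synthesis at medium-chain fatty acids, averaged 0.54 ± 0.43 (SD, n = 5) and 3.97 ± 1.59 (SD, n = 7; limma adjusted p = 0.103), but it was measured in 2 of the 5 high-Wnt tumors, so that the size of the difference is not exact. Cd36 is also expressed in fat cells and capillaries. Of 11 genes of lactose synthesis and transport, 0 were called, 6 had a lower mean and 1 an unadjusted p under 0.05, with a median of -0.23. Among them Abcg2, which carries riboflavin into milk, differed by -1.98, B4galt1, the catalytic partner of α-lactalbumin, by -1.80, and the water channel gene Aqp5 by 1.57 (limma adjusted p = 0.433, 0.214 and 0.753).

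Between adenosquamous and solid carcinomas no member was called and no gene on the array was (0% of 28786 by limma with Benjamini-Hochberg adjustment). At an unadjusted p under 0.05 there were 2 members and 5.62% of all genes. The mean was lower in adenosquamous carcinomas for 8 of 10 members. Their median difference was -1.42, beside -0.01 over all genes, most of which range less over the tumors. Without p75-94 the differences of Csn2 and Glycam1 turned to 0.09 and 0.79. All 4 adenosquamous carcinomas and 3 of the 9 solid carcinomas are p75 tumors, so that histology overlaps with transgene and scan year. Btn1a1 averaged 0.98 ± 0.80 (SD, n = 4) against 2.63 ± 1.31 (SD, n = 9), which is -1.65 apart (limma adjusted p = 0.861). The exact two-sided permutation test gave p = 0.0378, with 0.0014 the smallest it can give. Csn3 differed by -1.52, Lalba by -1.54, Xdh by -1.12, Csn2 by -2.12, Wap by -1.64, Glycam1 by -1.31 and Ltf by -0.60, each with an adjusted p over 0.86. Csn3 and Xdh were each measured in 1 of the 4 adenosquamous carcinomas, so that their differences have no exact size. Within p75 tumors the difference was -0.27 for Xdh, -0.82 for Csn3, -1.09 for Btn1a1, -1.20 for Lalba, -0.78 for Ltf, -2.34 for Glycam1, -2.44 for Wap and -3.11 for Csn2, with limma adjusted p = 1 for each. Without p110-121 these 8 differences ran from -1.16 for Xdh to -3.24 for Csn2, and that of Ltf was -1.46. In 3 of the 4 adenosquamous carcinomas β-casein was on the high side of its gap: Csn2 was 7.76 in p75-47, 8.98 in p75-80 and 10.40 in p75-101, and 0.21 in p75-94.

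The means of Csn1s1 and Csn1s2a differed by 0.02 and 0.18 between adenosquamous and solid carcinomas, by -1.15 and -0.90 without p110-121, and by -1.24 and -1.39 within p75 tumors. Of the solid carcinomas, 8 of 9 had Csn2 at 8.98 or higher, and the ninth is p110-121. Over marker genes, the mean was higher in adenosquamous carcinomas for 5 of 7 basal (median difference 2.06), 4 of 5 squamous (1.07), 6 of 7 neutrophil (0.94), 4 of 5 fibroblast (0.62), 6 of 9 luminal (0.34) and 3 of 4 hormone-sensing markers (0.04), and lower for 4 of 5 adipocyte (-0.40), 6 of 6 other immune (-0.21) and 6 of 7 endothelial markers (-0.14), with 0 calls by limma. The summed signal of the basal markers was 105300 to 656500 in adenosquamous and 7513 to 258300 in solid carcinomas, and that of the neutrophil markers 2373 to 90480 and 957.5 to 11640. Their part in the differences of the lactation genes was not tested. In the other types, Csn2 was 0.10 in the adenoma, 3.78 in the adenocarcinoma, and -0.10 and 1.72 in the adenomyoepitheliomas, so that none of these 4 tumors reached the lowest of the 11 high tumors. These types were not compared by a test.

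**Figure D5:**
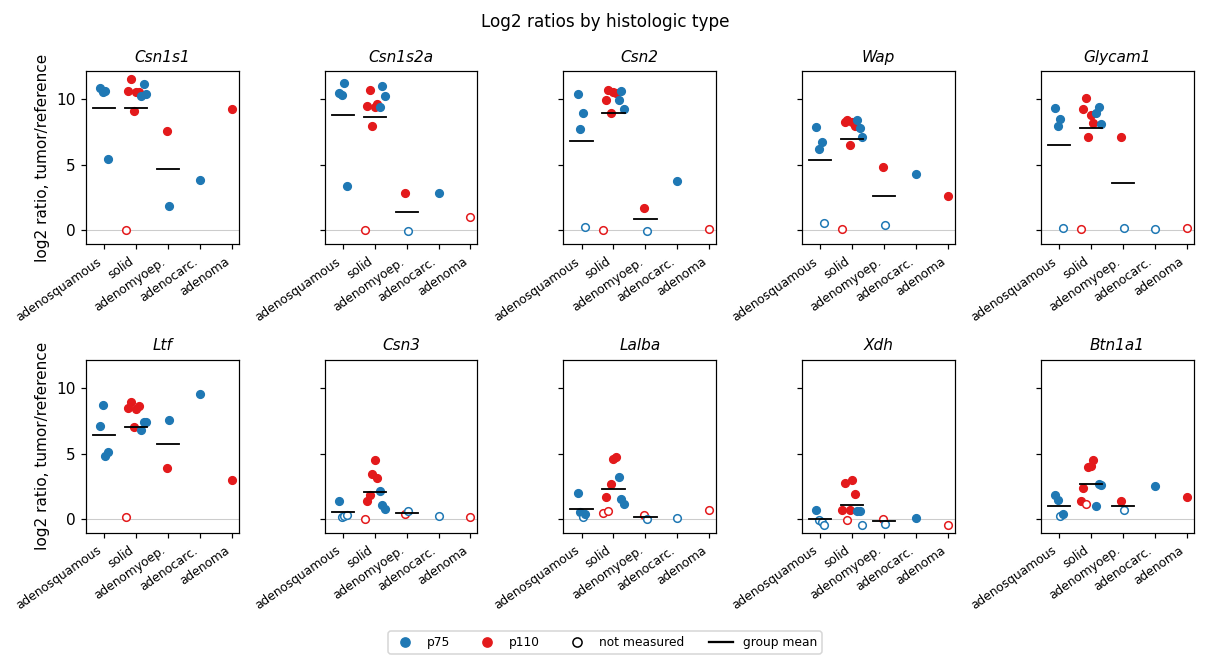
Log2 ratio of each member (y axis) by histologic type (x axis), 1 point per tumor colored by transgene and open where not measured, with the group mean as a line. In Csn2, 8 of 9 solid and 3 of 4 adenosquamous carcinomas are at 7.76 or higher, and all tumors of the other types are at or below 3.78.

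The lists gave the same count of calls, 0, in this comparison. The mean was lower in adenosquamous carcinomas for 12 of 13 other milk protein genes (median -0.98) and 11 of 16 milk fat genes (median -0.31), and for 8 of 16 prolactin and STAT5 genes (median -0.02) and 5 of 11 genes of lactose synthesis and transport (median 0.03). Spp1 differed by -1.91, Lao1 by -1.40 and Wfdc18, a whey acidic protein relative, by 1.40, with limma adjusted p of 0.892, 0.903 and 0.892. Cd36 differed by -2.91, Olah by -1.89 and Fabp3 by -1.58 (adjusted p = 0.84, 0.892 and 0.902). Prlr differed by -1.18, the cytokine signaling inhibitor gene Socs1 by 0.74 and the glucocorticoid receptor gene Nr3c1 by -0.52 (adjusted p = 0.892 for each). Slc30a2, a zinc transporter of the secretory cell, differed by 1.39, Aqp3 by 1.21 and Ugp2, which makes UDP-glucose, by -0.56 (adjusted p = 0.892, 0.892 and 0.884).

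Between p75 and p110 tumors 0 of the 10 members were called, beside 145 of 28786 genes (0.504%), and 1 member and 13.8% of all genes had an unadjusted p under 0.05. The median difference over the members was -0.45, with 7 of 10 lower in p75 tumors. Over marker genes, the mean was higher in p75 tumors for 5 of 7 basal (median difference 1.08), 8 of 9 luminal (0.62), 4 of 5 squamous (0.35), 6 of 7 neutrophil (0.15), 3 of 5 fibroblast (0.18) and 3 of 4 hormone-sensing markers (0.02), and lower for 6 of 7 endothelial (-0.22) and 3 of 5 adipocyte markers (-0.54), with 0 calls by limma in these 8 lists, and their part in the members' differences was not tested. Xdh averaged 0.02 ± 0.47 (SD, n = 9) in p75 and 1.07 ± 1.34 (SD, n = 8) in p110 tumors, which is -1.05 apart (limma adjusted p = 0.313, and by exact permutation 0.0426), and with the tumor color alone it was -1.64 (limma adjusted p = 0.0499), where 1739 genes were called. The log2 signal of the common reference for Xdh was 7.02 to 7.67 in p75 tumors and 8.15 to 8.66 in p110 tumors, and the part of this difference between arrays in the value was not tested. Btn1a1 and Csn3 differed by -1.07 and -1.09 (limma adjusted p = 0.42 and 0.44). Xdh and Csn3 were each measured in 4 of 9 p75 and 5 of 8 p110 tumors, and Lalba in 6 and 4. The differences of these genes therefore have no exact size. Csn1s1 differed by -0.31, Csn2 by 0.19, Wap by -0.38, Glycam1 by -0.52, Lalba by -0.98, Csn1s2a by 1.26 and Ltf by 1.09, all with adjusted p over 0.57. These 7 differences are smaller than the SD within each transgene. Without p110-121 they were -1.55 for Csn1s1, -0.75 for Csn2, -1.20 for Wap, -1.41 for Glycam1, -1.20 for Lalba, 0.35 for Csn1s2a and 0.25 for Ltf, and -1.10 for Xdh, -1.24 for Btn1a1 and -1.35 for Csn3, with 0 members called. Csn1s1, Wap and Glycam1 were above 0 without p75-90 (0.50, 0.26 and 0.20), without p75-94 (0.05, 0.24 and 0.19) and in solid carcinomas alone (1.89, 1.19 and 1.55). The 4 lactation lists had 0 calls in this comparison. Of the milk protein list Muc15 differed by 1.54, Lpo, which encodes lactoperoxidase, by -1.38 and Trf, which encodes transferrin, by -1.14 (limma adjusted p = 0.674, 0.137 and 0.453). Nfib, a transcription factor of the casein and Wap promoters, differed by 1.15 (adjusted p = 0.26), Id2 by 0.93 and Elf5 by 0.72. Cd36 differed by -1.40, Olah by -0.65 and Fabp3 by -0.63, and Aqp5 by 0.77, Abcg2 by -0.52 and Slc30a2 by 0.42, with adjusted p over 0.52 for these 8 genes.

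As the member with the widest range, Csn1s1 was taken (11.59, beside 11.30 for Csn1s2a, neither of exact size). Outside the 10 members, the genes most like it were found by Pearson's r over the 17 tumors. The search covered 13693 other genes that were measured in at least 5 tumors. They were Fam20a (0.827), a pseudokinase that assists phosphorylation of secreted proteins such as caseins, followed by Rps27 (0.818), a ribosomal protein gene with a range of -0.76 to 0.67, Tcf7l1 (0.815), a TCF factor, Fabp3 (0.805) and Nat8 (0.789). Here r serves as a measure of likeness only: the tumors share the reference and the array type, and 13 of the 17 values of Csn1s1 lie at 7.55 or higher.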

How the data were processed

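RNA from laser-microdissected epithelial cells of 17 tumors was run on 38 2-color Agilent arrays, with dyes swapped, against a common reference. The authors measured spots with Agilent Feature Extraction, and the deposited scanner files hold intensity values for each color, not normalized. The authors also deposited a table of log2 ratios, from limma per the submitters' processing notes, which equals tumor over reference after normexp (offset 50), loess within arrays and averaging of arrays (largest difference 4.98e-08). The direction follows the dyes in the labels. No column was left unmapped.

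Values were made again from the scanner files by these steps in R 4.3.3 with limma 3.58.1 and statmod 1.5.0. Outlier spots (0.545%) and controls were left out, saturated spots were kept, and the brightest probe stood for a gene. Probe accessions were matched to RefSeq for 22951 of 41174 probes (55.7%), and probe positions in the files are of mm7. Figures were drawn with matplotlib 3.10.9. Normalization of the ratio moves all genes together and 2 rounds of amplification can compress or lose weak mRNAs. The precision is limited by the number of arrays.

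Histology and transgene come from the labels, and the Wnt clusters from the study's heatmap. Groups were compared with limma (lmFit, eBayes; contrasts over all 17 tumors, Benjamini-Hochberg adjusted p under 0.05 over 28786 genes) and, for members, with exact two-sided permutation tests. Correlations used 100000 permutations. The code was tested on simulated data. The members and lists were chosen with earlier results of these data known. All members are named, and of each list (prolactin and STAT5, other milk proteins, milk fat, lactose and transport, and markers of luminal, hormone-sensing, basal, squamous, fat, endothelial, neutrophil, other immune and fibroblast cells) genes that were called or have 1 of the 3 largest differences. The rule covers the marker lists too, which are given here by counts and by sums of linear tumor signal. A result of 1 marker gene is not reported here. Alternatives were other background and normalization settings, the deposited table, a filter on dim probes, all probes, saturated spots left out, 1 dye, the tumor color alone, trend and robust estimation, scan year, slide and scan day as blocks, signal strength as a covariate, subsets of tumors and each tumor left out.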

Additional observations from a re-analysis of the deposited data

Results flagged for a closer look

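In groups of 4 to 10 tumors, a tumor is listed here when its gap to the nearest other tumor is a large part of the range of its group by Dixon's criterion. This held for 16 of 70 combinations of a member and a group (22.9%). By chance the criterion gives about 1 in 20, but only for normally distributed values. Several members have a gap between high and low tumors, so that 22.9% cannot be set against that rate. The groups share tumors and the members vary together, so the listed combinations are not separate events. No cause was tested.

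Among the 9 solid carcinomas, p110-121 stood apart in 6 members, with log2 ratios of 0 for Csn1s1, 0.02 for Csn1s2a, 0.03 for Csn2, 0.11 for Wap, 0.07 for Glycam1 and 0.15 for Ltf. Its Csn1s1 value of 0 also stood apart among the 8 p110 tumors. In the same tumor Epcam was at -0.27 and Krt8 at -4.24.

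Among the 4 adenosquamous carcinomas, p75-94 stood apart on the low side with 5.44 for Csn1s1, 3.34 for Csn1s2a and 0.17 for Glycam1, and p75-101 on the high side with 1.35 for Csn3. The latter is the low-Wnt tumor of this type.

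In the Wnt clusters, p110-225 stood apart among high-Wnt tumors with 1.8 for Csn3. Among medium-Wnt tumors p75-129 stood apart with 2.14 for Csn3, 3.17 for Lalba and 8.98 for Glycam1, and among low-Wnt tumors p110-314 with 9.09 for Csn1s1, a value that includes 1 array of 2 on which Csn1s1 was saturated in the tumor color.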

How the results depend on the processing

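Of 1001 comparisons of a member's difference with an alternative, 937 kept the direction and the side of the threshold, 61 changed sign and 3 crossed the threshold. The 3 gave a count of 1 member called in place of 0: Btn1a1 between high-Wnt and low-Wnt tumors with the filter on dim probes and with scan year as a block, and Xdh between transgenes in the tumor color alone. Leaving out any tumor left 0 members called in all 3 comparisons. The cause of these changes was not tested. No paired analysis was possible because replicate numbers do not pair tumors. The range of Csn1s1 was 11.54 in the deposited table, where it stayed the widest of the members and the relation of Csn3 and Lalba had r = 0.899. Without p110-121, chosen after seeing the data, this r was 0.896.

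For adenosquamous minus solid carcinomas, Csn1s1 (main value 0.02) was -0.15 without background correction, -0.61 with arrays scaled, -0.16 without saturated spots, -0.50 on Cy5 arrays, -0.02 with slide or scan day (each a random block: -0.0193 and -0.0202), -0.0014 with signal strength as a covariate, -1.24 in p75 tumors and -1.15 to 1.34 with a tumor left out. Csn1s2a (0.18) was -0.25 with arrays scaled, -0.42 without saturated spots, -0.76 on Cy5 arrays, -0.74 in the tumor color alone and with scan year as a block, -1.39 in p75 tumors and -0.90 to 2.02 with a tumor left out. Leaving out a tumor gave -3.31 to 0.087 for Csn2 and -2.28 to 0.79 for Glycam1, positive in each without p75-94. Ltf was 0.27 with Feature Extraction signals. Over all genes, 1 was called with offset 10, 3 with Feature Extraction signals, 1 with arrays scaled, 1 in the tumor color alone and 0 to 52 with a tumor left out (52 without p75-101).

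For high-Wnt minus low-Wnt, the solid carcinomas alone, with p110-225 the lone high-Wnt tumor and assumed to vary like the others, gave 1.19 for Csn1s1, 1.09 for Csn1s2a, 0.75 for Csn2, 0.76 for Wap, 1.63 for Glycam1 and 1.0 for Ltf. Glycam1 was 0.24 in p110 tumors. Calls over all genes (67) were 0 without background correction, with median centering and with arrays scaled, 41 with offset 10, 5 with Feature Extraction signals, 7 on Cy5 and 9 on Cy3 arrays, 8 in the tumor color alone, 16 with trend and robust estimation, 125 with scan year as a block, 32 with signal strength as a covariate, 143 with the 2 groups alone, 10 in p75 and 374 in p110 tumors, and 7 (without p110-360) to 115 with a tumor left out. The 115 came without p110-121, an alternative chosen after seeing the data.

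For p75 minus p110, Csn1s1 (-0.31) was 0.85 with median centering, 0.01 in the tumor color alone, 1.89 in solid carcinomas and -1.55 to 0.50 with a tumor left out. Csn2 (0.19) was -0.89 with arrays scaled, -0.83 with signal strength as a covariate and -0.75 to 1.05 with a tumor left out. Wap was 0.41 with median centering, 0.13 on Cy3 arrays, 1.19 in solid carcinomas and -1.20 to 0.26 with a tumor left out. Glycam1 was 0.30 with median centering, 1.55 in solid carcinomas and -1.41 to 0.20 with a tumor left out. Calls over all genes (145) were 218 without background correction, 304 with Feature Extraction signals, 1205 with median centering, 67 with arrays scaled, 315 on Cy5 and 71 on Cy3 arrays, 1739 in the tumor color alone, 219 with signal strength as a covariate, 0 in solid carcinomas and 46 to 1084 with a tumor left out (1084 without p110-314).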
